A study of Mus musculus with 3 samples.

Results

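The 10 genes described here encode the 5 subunits of the transcription factor NF-kB (Nfkb1, Rel, Rela, Nfkb2 and Relb) and 5 of the proteins that restrain it (Nfkbia, Nfkbib, Nfkbie, Nfkbiz and Tnfaip3). They were chosen by name, and each matched 1 of the 55536 mouse genes in the larger deposited gene table. RNA came from activated regulatory T cells, a CD4 T cell type that expresses Foxp3 and keeps immune responses in check, taken as primary cells from mice labelled male and 3 weeks old. The 3 polyadenylated RNA-seq libraries are technical replicates 1, 2 and 3 of 1 biological replicate and form 1 group, so no treatment, genotype or resting control was compared, and every SD is the spread between 3 libraries (n = 3), not between animals. The labels name the whole organism as the origin and 1 donor. The strain and the way of activation were not given in the sources used here.

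NF-kB subunits share a DNA-binding and pairing region, the Rel homology domain, and act as dimers. In a resting cell the classical inhibitors, the I kappa B proteins, hold most dimers in the cytoplasm. Signals from the antigen receptor and from TNF-family receptors switch on the I kappa B kinase complex (IKK), which phosphorylates a pair of serines in each classical inhibitor and marks it for destruction, and the freed dimers enter the nucleus. In the canonical branch the dimers are built from p50 (cut from the p105 product of Nfkb1), p65 (Rela) and c-Rel (Rel). In the non-canonical branch p100 (Nfkb2) is cut to p52, which pairs with RelB. In regulatory T cells c-Rel and p65 are known for their part in Foxp3 expression and in keeping the cells' identity.

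The codons of the serine pair in the 3 classical inhibitors are shown first. In-frame codons for aspartate, serine, glycine, any 2 residues and serine were looked for in the longest annotated coding sequence of each member. Each classical inhibitor held 1 match while the other 7 members held 0. The pattern has the spacing of the classical inhibitors, and serine pairs of another spacing were not looked for, so the 0 does not say that other members lack them. The serines are codons 32 and 36 in Nfkbia (chr12:55492407-55492448, minus strand), codons 19 and 23 in Nfkbib (chr7:28766342-28766383, minus strand) and codons 18 and 22 in Nfkbie (chr17:45555977-45556018, plus strand), on mm10 with GENCODE M21 annotation. The sequences run 5′ to 3′ on the coding strand, with the codons of the motif in capitals.
Nfkbia: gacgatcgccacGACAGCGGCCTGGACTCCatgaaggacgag
Nfkbib: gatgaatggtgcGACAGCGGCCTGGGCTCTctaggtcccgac
Nfkbie: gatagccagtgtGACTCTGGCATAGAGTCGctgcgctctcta
All 3 stretches lie near the start of the coding sequence. The codons of the shared aspartate (GAC) and glycine (GGC) are the same in all 3 genes, while the serine codons vary. The first serine is AGC in Nfkbia and Nfkbib and TCT in Nfkbie, and the second is TCC, TCT and TCG in Nfkbia, Nfkbib and Nfkbie.

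Gene-assigned reads numbered 28419259 to 31959927 per library. Levels are in TPM, the authors' estimate of abundance after scaling for transcript length and library total, which allows genes of different length to be set side by side. The labelled cell type was checked against its markers. All 7 T cell and Treg markers were detected, from Foxp3 at 130.2 ± 22.0 TPM to Trac, the T cell receptor alpha constant gene, at 2223 ± 203 TPM. The summed level of these 7 was 4276 to 4404 TPM. The markers of other cells had summed levels of 165.7 to 599.6 TPM for dendritic cells (highest Cd74, lowest Flt3), 62.05 to 118.5 TPM for monocytes and macrophages (highest Lyz2, lowest Itgam), 40.21 to 67.69 TPM for B cells (highest Cd79b, lowest Pax5), 20.38 to 28.36 TPM for CD8 T cells (highest Cd8b1, lowest Cd8a), 2.900 to 7.580 TPM for natural killer cells (highest Eomes, with Ncr1 at 0 reads) and 0.6900 to 9.810 TPM for neutrophils (highest S100a9, with Elane at 0 reads). At these depths 0 reads allows up to 3. Library 1 stood apart in the 7 erythroid markers (highest Hbb-bs), which summed to 14030.1 TPM there and to 1179.7 and 810.8 TPM in libraries 2 and 3.

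All 10 members were detected at 1 TPM or more in every library, as were 23.4% of all genes and 48.1% of protein-coding genes. Their median level was 65.8 TPM, against 30.1 TPM over the 10601 detected protein-coding genes. Nfkbia stood far above the rest and Rel far below them, and the other 8 lay between 48.2 and 129 TPM on average. Together the members took 1238, 1289 and 1241 TPM in libraries 1, 2 and 3.

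**Figure D1:**
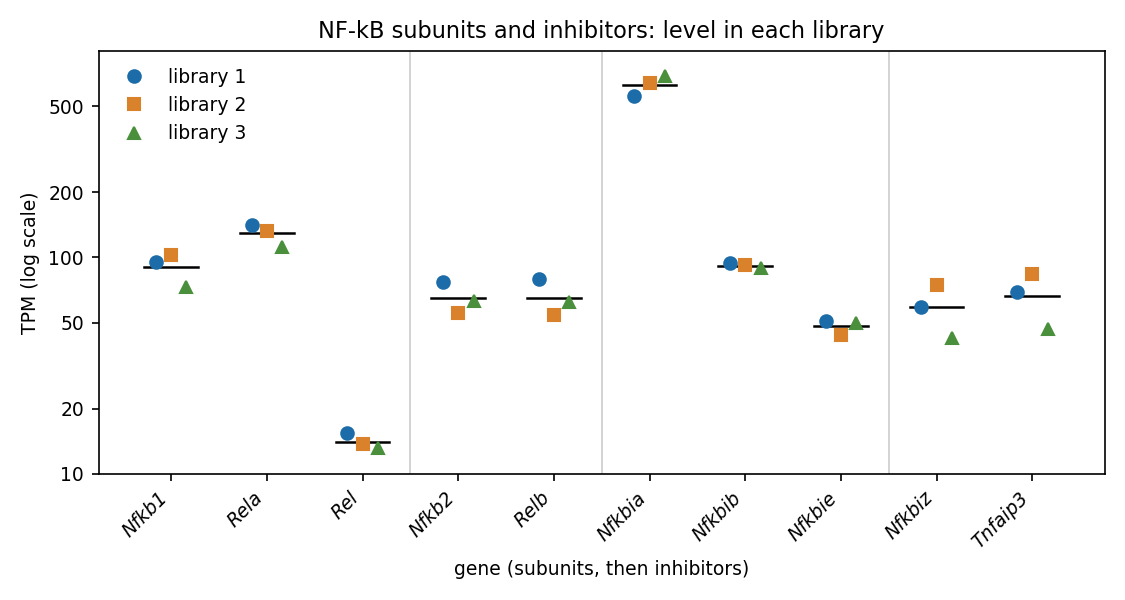
Level of each member in TPM (log axis) in libraries 1, 2 and 3, with the canonical subunits at the left, then the non-canonical subunits, the classical inhibitors, and Nfkbiz with Tnfaip3; the black bar is the mean of 3 libraries. Nfkbia lies between 556.2 and 689.6 TPM, Rel between 13.2 and 15.5 TPM, and the other 8 genes lie between these.

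Among the canonical subunits Rela was the highest. Rela (ENSMUSG00000024927.8, chromosome 19, 5637483 to 5648130, plus strand), which encodes the activating subunit p65, had 141.4, 132.4 and 111.9 TPM in libraries 1, 2 and 3, a mean of 129 ± 15.1 TPM (SD, n = 3) at the 87.2 percentile of detected protein-coding genes. Library 3 was the low one, and library 1 the high one. Nfkb1 (ENSMUSG00000028163.17, chromosome 3, 135584655 to 135691547, minus strand), the source of p105 and p50, had 95.1, 102.5 and 73.3 TPM in libraries 1, 2 and 3 (90.3 ± 15.2 TPM, SD, n = 3). It too was lowest in library 3, but its highest library was the second. Rel (ENSMUSG00000020275.9, chromosome 11, 23736847 to 23770970, minus strand), which encodes c-Rel, had 15.5, 13.7 and 13.2 TPM (14.1 ± 1.22 TPM, SD, n = 3), at the 30.8 percentile, and was the lowest member in each library. Its reads were not few: 2184, 1790 and 2177 were assigned to its single annotated transcript of 7466 bases, and no other member had a mean length as great.

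The non-canonical subunits were at nearly the same level as each other. Nfkb2 (ENSMUSG00000025225.15, chromosome 19, 46304320 to 46312385, plus strand), the source of p100 and p52, had 77.1, 55.2 and 63.1 TPM in libraries 1, 2 and 3 (65.1 ± 11.0 TPM, SD, n = 3). Relb (ENSMUSG00000002983.17, chromosome 7, 19606217 to 19629438, minus strand), the partner of p52, had 79.2, 54.2 and 61.9 TPM (65.1 ± 12.8 TPM, SD, n = 3). Both were highest in library 1 and lowest in library 2, with the third between them. Exons of Nfkb2 overlap, on the opposite strand, those of AC114539.1 over 531 bases (11.6% of its exonic bases) and those of Psd over 299 bases (6.52%). Whether counting used strand is not given in the sources used here, so reads of the 3 genes may be mixed. AC114539.1 was listed at 30.6 to 38.2 TPM and Psd at 5.20 to 6.41 TPM.

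Of the classical inhibitors, Nfkbia took the greatest part. Nfkbia (ENSMUSG00000021025.8, chromosome 12, 55489410 to 55492647, minus strand), which encodes I kappa B alpha, itself a known target of NF-kB, had 556.2, 637.6 and 689.6 TPM in libraries 1, 2 and 3 (628 ± 67.3 TPM, SD, n = 3), at the 98.3 percentile. Its order, library 3 above library 2 above library 1, was shared by no other member. Nfkbib (ENSMUSG00000030595.15, chromosome 7, 28758251 to 28767512, minus strand), which encodes I kappa B beta, had 93.9, 91.8 and 88.9 TPM (91.6 ± 2.51 TPM, SD, n = 3) and varied least in proportion to its level. Nfkbie (ENSMUSG00000023947.8, chromosome 17, 45555703 to 45563169, plus strand), which encodes I kappa B epsilon, had 50.7, 43.9 and 50 TPM (48.2 ± 3.74 TPM, SD, n = 3). Libraries 1 and 3 were close there and library 2 was lower. Exons of Nfkbib overlap opposite-strand exons of Ccer2, listed at 0 to 0.0800 TPM, over 314 bases (14.5%) and of Sirt2, listed at 60.4 to 62.6 TPM, over 42 bases (1.94%).

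The remaining inhibitors act elsewhere in the pathway. Nfkbiz (ENSMUSG00000035356.17, chromosome 16, 55811375 to 55838899, minus strand) encodes I kappa B zeta, a nuclear protein that binds p50 and modulates chosen target genes, and it had 59.2, 74.2 and 42.6 TPM in libraries 1, 2 and 3 (58.7 ± 15.8 TPM, SD, n = 3). Tnfaip3 (ENSMUSG00000019850.11, chromosome 10, 19000910 to 19015657, minus strand) encodes A20, a ubiquitin-editing enzyme that dampens signalling to IKK, and it had 69.5, 83.4 and 46.5 TPM (66.5 ± 18.7 TPM, SD, n = 3). Both were highest in library 2 and lowest in library 3, and these were the members with the widest spread for their level.

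The order of the 10 by mean TPM was Nfkbia, Rela, Nfkbib, Nfkb1, Tnfaip3, Nfkb2, Relb, Nfkbiz, Nfkbie and Rel. A step or ratio was taken as larger than the spread where log2((TPM + 1)/(TPM + 1)) had 1 sign in all 3 libraries and its mean exceeded 2 SD, since 3 libraries cannot give a two-sided sign-flip p below 0.25. By this rule 4 of 9 neighbouring steps were larger than the spread. The step from Nfkbia to Rela was 1.97, 2.26 and 2.61 on the log2 scale (2.28 ± 0.32, SD, n = 3), a 4.86-fold difference. The step from Nfkbie to Rel was 1.70 ± 0.13, that from Rela to Nfkbib 0.48 ± 0.13, and that from Nfkb1 to Tnfaip3 0.46 ± 0.18, which without library 1 no longer exceeded 2 SD (0.47). Nfkbib and Nfkb1 did not differ beyond the spread (0.03 ± 0.22), though by protein-coding transcripts alone they did (1.15 ± 0.22). Nor was the spread exceeded between Tnfaip3 and Nfkb2 (0.00 ± 0.53), Nfkb2 and Relb (0.00 ± 0.04), Relb and Nfkbiz (0.17 ± 0.53), or Nfkbiz and Nfkbie (0.25 ± 0.49). Tnfaip3, Nfkb2, Relb, Nfkbiz and Nfkbie thus formed a run in which no neighbour differed beyond the spread. Without library 2 the step from Relb to Nfkbiz did exceed it (0.47).

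The 3 canonical subunits together were more abundant than the 2 non-canonical ones together, though Rel alone lay below both of the latter. Rela, Nfkb1 and Rel summed to 252.0, 248.6 and 198.3 TPM, and Nfkb2 and Relb to 156.3, 109.5 and 125.0 TPM, so the ranges did not overlap. The log2 ratio was 0.69, 1.18 and 0.66 (0.84 ± 0.29, SD, n = 3), 1.79-fold on average, with library 2 the highest. By coding transcripts alone it was 0.57 ± 0.22, or 1.48-fold. Rela exceeded Relb by 0.98 ± 0.25, whereas Nfkb1 and Nfkb2, the genes of the processed precursors, did not differ beyond the spread (0.46 ± 0.36). Without library 2 that last ratio was smaller but less scattered and passed the rule (0.26). Within the canonical branch the level of Rel was below that of Rela by 8.54-fold (log2 ratio -3.09 ± 0.10), and that of Nfkb1 was below Rela by 1.43-fold (-0.51 ± 0.13). By coding transcripts alone Nfkb1 lay further below Rela, by 2.79-fold (-1.48 ± 0.14), and its ratio to Nfkb2 turned to -0.56 ± 0.30, still within 2 SD.

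The classical inhibitors together exceeded the 5 subunits together. Nfkbia, Nfkbib and Nfkbie summed to 700.8, 773.3 and 828.5 TPM, against 408.3, 358.1 and 323.4 TPM for the subunits. The ranges did not overlap, and the log2 ratio was 0.78, 1.11 and 1.35 (1.08 ± 0.29, SD, n = 3), 2.11-fold on average. By coding transcripts alone this ratio was smaller, at 0.56 ± 0.25, or 1.47-fold. Of the mean inhibitor sum of 768 TPM, Nfkbia had 628 TPM. Nfkbia alone was above Nfkbib by 2.76 ± 0.19, above Nfkbie by 3.67 ± 0.21, above Tnfaip3 by 3.25 ± 0.53 and above Nfkbiz by 3.43 ± 0.49, all on the log2 scale, and Nfkbib was above Nfkbie by 0.91 ± 0.12. By coding transcripts alone the lead of Nfkbia was smaller, at 1.65 ± 0.19 over Nfkbib, 2.81 ± 0.23 over Nfkbie, 2.22 ± 0.52 over Tnfaip3, 2.33 ± 0.47 over Nfkbiz and 1.32 ± 0.29 over Rela, and each still exceeded 2 SD. In all, 11 of the 13 ratios in the plot of ratios were larger than the spread.

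**Figure D2:**
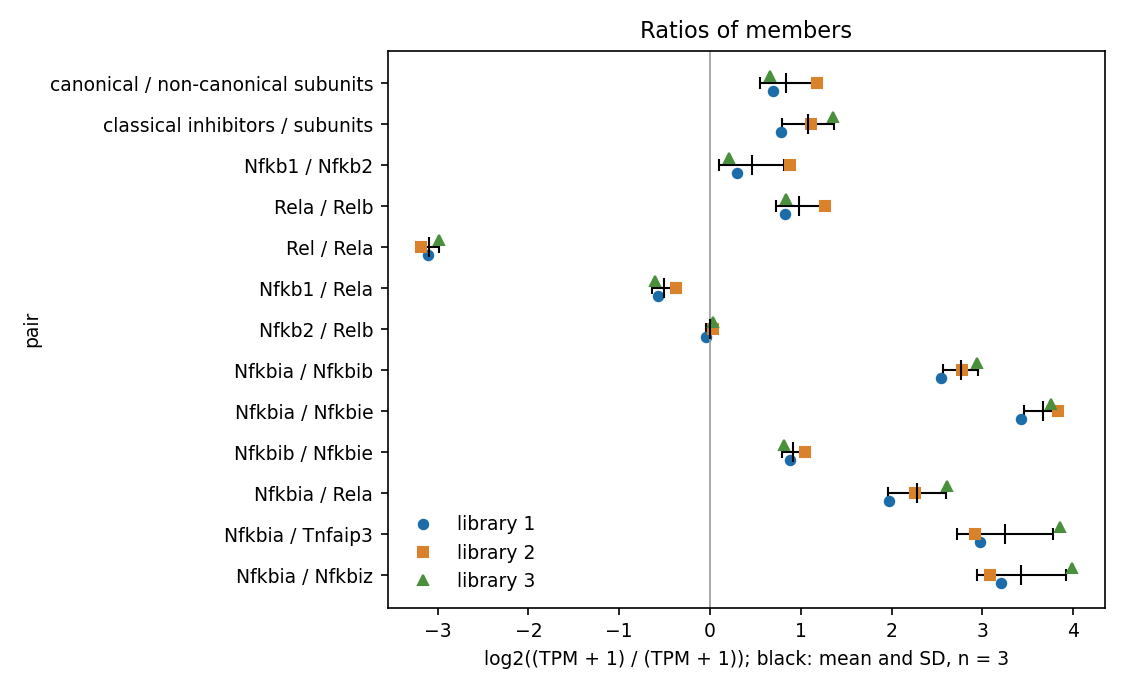
Log2 ratios of TPM + 1 between members or summed members in libraries 1, 2 and 3, with the mean and SD (n = 3) in black. The ratio of Nfkb2 to Relb lies at 0.00 ± 0.04 and that of Nfkb1 to Nfkb2 at 0.46 ± 0.36, while the other 11 lie more than 2 SD from 0.

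The place of Nfkbia depended on which deposited table was read. In the smaller table of whole-number counts Nfkbia had 1891, 1924 and 1982 reads, which is 17.0%, 16.1% and 12.3% of its reads in the larger table, while the other 9 members had from 26.7% (Rel) to 63.4% (Nfkb2) on average. Nfkbia was also the member with the most reads per base in the larger table, at 11.8, against 0.275 for Rel to 2.45 for Rela. Its reads there, 11135, 11932 and 16160 in libraries 1, 2 and 3, were the most of any member before any division by length. Over all genes in both tables with at least 100 reads, the median share was 51.6% below 1 read per base, 29.8% at 2 to 5 and 6.23% at 10 to 20. Rel, at 26.7%, had a low share with few reads per base. The counts of the smaller table were used without division by length and are set here against TPM ratios. In them the ratio of the classical inhibitors to the subunits was reversed (-1.16 ± 0.10), as was that of Nfkbia to Rela (-0.27 ± 0.07). That of the canonical to the non-canonical subunits no longer exceeded 2 SD (0.26 ± 0.21). Ratios of undivided reads in the larger table were not computed, so the part of the division by length in these changes was not tested.

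By the reads of the larger table, each of the 10 members differed between the libraries by more than the chi-square test allows for read sampling. In a chi-square test of the reads against scaled library sizes (2 degrees of freedom, adjusted by Benjamini-Hochberg over all genes that average at least 10 reads), 10 of 10 members passed an adjusted p of 0.05. This share is not particular to them: 79.8% of all 17190 genes tested passed, and 93.6% of the 6261 genes that average at least 1000 reads, a class that holds all 10 members. The ratio of the highest to the lowest library, in CPM (reads scaled to a common library size by the TMM method), had a median of 1.30 over the members and ran from 1.12 to 1.69, against a median of 1.42 over all genes tested and 1.27 over those that average at least 1000 reads. The test compares libraries of 1 biological replicate, and nothing says at which step the libraries parted.

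The members did not move as 1 block. By CPM 5 were highest in library 1, 3 in library 2 and 2 in library 3, and 1, 5 and 4 were lowest in libraries 1, 2 and 3. Over all genes tested, those that passed and were highest in libraries 1, 2 and 3 made up 26.5%, 26.3% and 27.0%, and those that passed and were lowest there 23.2%, 21.4% and 35.2%.

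**Figure D3:**
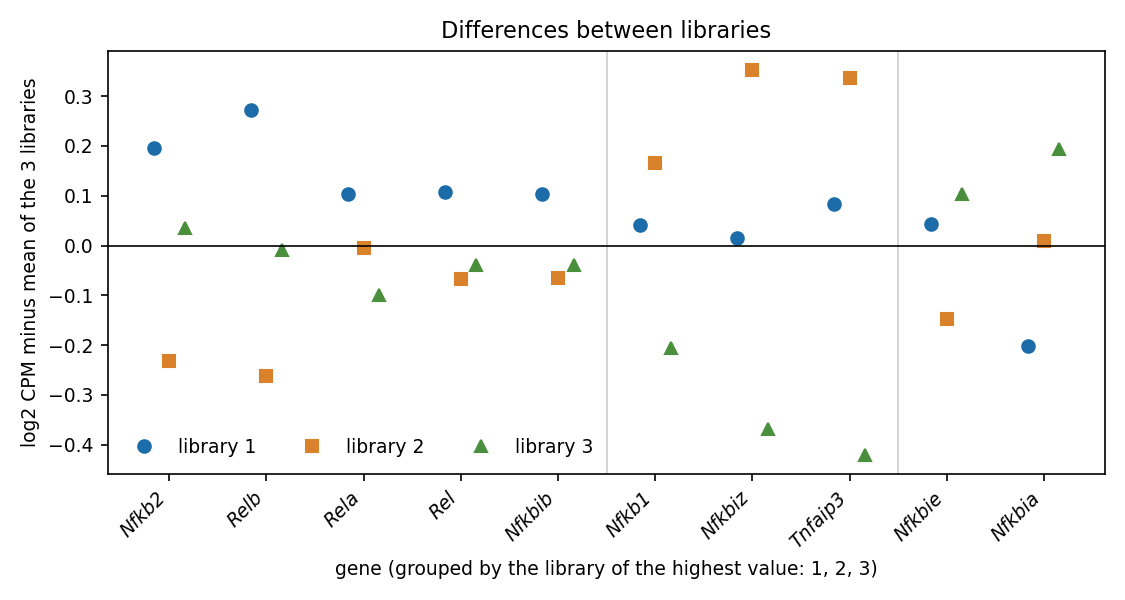
Log2 CPM of each member in each library minus the mean of its 3 libraries, grouped by the library with the highest value (1, 2, then 3, parted by grey lines). Nfkb2 and Relb lie high in library 1 and low in library 2, Nfkb1, Nfkbiz and Tnfaip3 high in library 2 and low in library 3, and Nfkbia high in library 3 and low in library 1.

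Nfkb2 and Relb, the non-canonical pair, shared the order library 1, library 3, library 2. Nfkb2 had 152, 113 and 136 CPM in libraries 1, 2 and 3, a 1.34-fold range (chi-square adjusted p = 3.53e-34). Relb had 112, 77.4 and 92.2 CPM, a 1.45-fold range (adjusted p = 7.29e-41). Without library 1 both still passed between the other 2 libraries. Among all genes tested, 8.75% passed and were highest in library 1 and lowest in library 2, as these were along with Rel and Nfkbib. The summed dendritic cell markers stood in the same order, as 3 of the 6 did singly, at 599.6, 165.7 and 378.6 TPM in libraries 1, 2 and 3, with 2 of 6 detected in every library. Cd74 (459.9, 137.7 and 300.9 TPM) and H2-Ab1 (133.0, 24.9 and 74.6 TPM), which serve antigen presentation in several cell types, made up most of that sum, and none of the 6 was at 0. Of the markers more particular to dendritic cells, Zbtb46 (3.08, 1.32 and 0.780 TPM) and Xcr1 (1.38, 1.26 and 0.650 TPM) were lowest in library 3, and Flt3 (0.0700, 0.01 and 0.750 TPM) was highest there. The monocyte and macrophage sum (118.5, 62.05 and 76.44 TPM) and the neutrophil sum (9.810, 0.6900 and 1.040 TPM) had the same order, with 1 of 6 and 1 of 5 markers in that order singly. So did the T cell and Treg sum (4404, 4276 and 4389 TPM), with 2 of 7 markers singly. The erythroid sum was also highest in library 1. The B cell, CD8 T cell and natural killer cell sums were highest in library 3 and lowest in library 2. The part of any of these markers in the difference was not tested. In bulk RNA, fewer cells of a type and less RNA per cell cannot be told apart.

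Nfkb1, Nfkbiz and Tnfaip3 were highest in library 2 and lowest in library 3. Tnfaip3 had 187, 223 and 132 CPM in libraries 1, 2 and 3, the widest range among the members at 1.69-fold (chi-square adjusted p = 7.70e-157). Nfkbiz followed with 133, 168 and 102 CPM (1.64-fold, adjusted p = 9.87e-106) and Nfkb1 with 149.7, 163 and 126 CPM (1.29-fold, adjusted p = 1.09e-31). These 3 are thus the precursor of p50, a nuclear partner of p50 and the feedback enzyme A20. The same order, with a passing test, was found for 17.5% of all genes tested.

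Long genes were low in library 3 in general: across 17190 genes, which are not independent replicates, a gene's deviation in that library had a Spearman rho of -0.274 with its length, against 0.160 in library 1 and 0.191 in library 2. The mean lengths were 4279 bases for Tnfaip3, 3612 for Nfkbiz and 2568 for Nfkb1. With the length trend removed from each library, all 3 kept their highest and lowest library, with ranges of 1.52-fold, 1.51-fold and 1.23-fold. Of all 10 members 8 kept both, while Rel became highest in library 3 (1.22-fold) and Nfkbib lowest in library 3 (1.09-fold).

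Nfkbia stood apart in its order, with 371, 429.7 and 488 CPM in libraries 1, 2 and 3 (1.31-fold, chi-square adjusted p = 1.53e-107). Of all genes tested, 14.4% passed and were highest in library 3 and lowest in library 1. With the length trend removed its range was 1.30-fold in the same order, but in the smaller table its counts were within 1.08-fold of each other after scaling, highest in library 2, and did not pass (adjusted p = 0.0834). Nfkbia was also the only member with its lowest value in library 1, and the order highest in library 2 and lowest in library 1, found for 8.81% of genes, was met by no member.

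The other 4 members had the narrowest ranges. Rela had 221, 205 and 192 CPM in libraries 1, 2 and 3 (1.15-fold, chi-square adjusted p = 2.12e-14), as 17.7% of genes tested passed with that highest and lowest library. Nfkbie had 78.9, 69.1 and 82.3 CPM (1.19-fold, adjusted p = 3.78e-08), an order of highest and lowest found for 12.6%, and without library 2 it no longer passed (adjusted p = 0.472). Nfkbib with 82.3, 73.2 and 74.5 CPM (1.12-fold, adjusted p = 1.55e-04) and Rel with 72.8, 64.5 and 65.8 CPM (1.13-fold, adjusted p = 2.30e-04) both lost their call without library 1 (adjusted p = 0.631 and 0.599). In the smaller table Rela and Nfkbib did not pass either (adjusted p = 0.101 and 0.808). For Rel and Nfkbib the lowest library was 2 by CPM and 3 by TPM, and for Nfkbie the highest was 3 by CPM and 1 by TPM.

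The annotation gives the 10 genes 56 transcripts, 29 of them protein-coding, 14 retained-intron, 6 marked for nonsense-mediated decay (the pathway that destroys transcripts with an early stop) and 7 other processed transcripts. TPM above 0 was estimated for 47. The authors' estimates divide reads among transcripts that share most of their sequence, so a share rests on the few bases or splice junctions that set a transcript apart. Rel has 1 transcript. Of the other 9, 7 had a main transcript with 50% or more of the gene's TPM in each library, as had 57.5% of the 9743 detected protein-coding genes with more than 1 transcript. The exceptions were Nfkb1 and Nfkb2. Transcripts not annotated as coding took a median of 9.78% over the 9 members, against 16.5% over the 9743 genes.

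**Figure D4:**
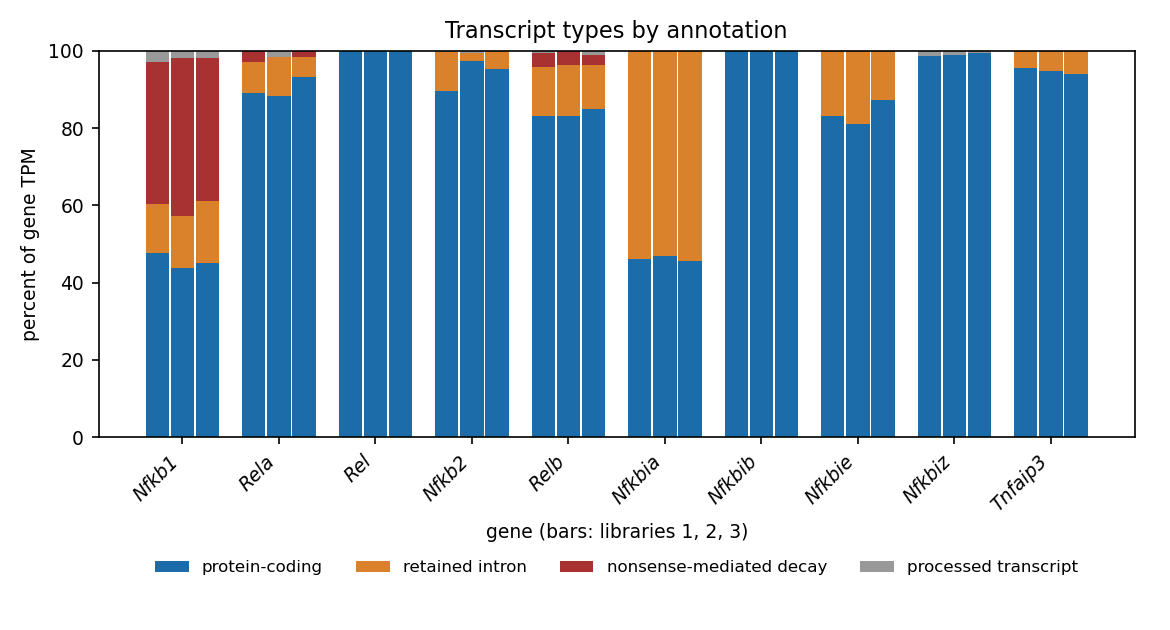
Percent of each member's TPM on transcripts of each annotated type, with 1 bar each for libraries 1, 2 and 3. Retained-intron transcripts take 53.1% to 54.3% of Nfkbia, nonsense-mediated decay transcripts 36.8% to 40.9% of Nfkb1, and coding transcripts over 80% of the other 8 genes in every library.

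Nfkbia was the member with most of its TPM on a retained-intron transcript. Nfkbia-202, annotated as such and 701 bases long (chr12:55490407-55491810, minus strand), took 54.0%, 53.1% and 54.3% of the gene's TPM in libraries 1, 2 and 3 (53.8 ± 0.644%, SD, n = 3), and the coding Nfkbia-201 of 1578 bases took the remaining 46.2 ± 0.644%. The libraries differed little. By reads, without the division by length, Nfkbia-202 took 33.2 ± 0.574%. Retained-intron transcripts held 50% or more in each library in 4.31% of the 9743 genes. The parts that set Nfkbia-202 apart are short: 32 of its exonic bases and none of its junctions are in no other transcript of the gene, against 909 such bases in Nfkbia-201. Its first 60 bases are shown, with the 32 bases annotated as intron in the coding transcript in capitals (chr12:55491751-55491810, minus strand, mm10).
Nfkbia-202: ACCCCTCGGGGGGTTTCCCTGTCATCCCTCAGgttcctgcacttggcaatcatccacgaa
The coding transcript alone had 255.6, 299.1 and 315.1 TPM, which still made Nfkbia the first of the 10 by coding level (290.0 ± 30.8 TPM, SD, n = 3).

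Nfkb1 was divided among short transcripts, and its full-length form took a small share. Nfkb1-201, the transcript of 4117 bases with 2913 coding bases that encodes full-length p105, took 15.4%, 16% and 16.1% of the TPM in libraries 1, 2 and 3 (15.8 ± 0.404%, SD, n = 3). Nfkb1-207, annotated for nonsense-mediated decay and 1924 bases long, took 36.8%, 40.9% and 37.0% (38.2 ± 2.29%), Nfkb1-203, coding and 2354 bases long, took 29.8 ± 2.30%, and Nfkb1-204, a retained-intron transcript, took 7.22 ± 2.51%. As annotated, both short leading forms begin within the gene, at 135603796 (Nfkb1-207) and 135608270 (Nfkb1-203). Nfkb1-201 starts at 135691546 on the minus strand of chromosome 3. The short forms have 808 and 1600 annotated coding bases, neither a multiple of 3. Their coding sequences are thus annotated in part only, and their listed 5′ ends need not be true starts. By reads Nfkb1-201 took 25.5 ± 0.446% and Nfkb1-207 28.5 ± 1.85%.

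What sets each short Nfkb1 form apart from all other annotated transcripts of the gene is 1 splice junction that skips an exon. Counted in that way, neither Nfkb1-207 nor Nfkb1-203 has an exonic base of its own, and the full-length Nfkb1-201 has 2 such bases and 0 junctions of its own. Nfkb1-201 does have exons upstream of both short forms, which it shares with other annotated transcripts. Nfkb1-207 lacks an exon of 67 bases and Nfkb1-203 one of 178 bases, both towards the 3′ end of the gene. The junctions are shown with the upstream exon in capitals and the downstream exon in lower case (from chr3:135590469-135591573 and chr3:135585496-135590335, minus strand, mm10).
Nfkb1-207: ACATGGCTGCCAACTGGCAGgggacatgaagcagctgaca
Nfkb1-203: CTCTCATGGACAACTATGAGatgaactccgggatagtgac
Transcripts not annotated as coding held 50% or more of the TPM in each library in Nfkb1 and Nfkbia, 2 of the 9 members, and in 13.9% of the 9743 genes. By reads they held less, at 44.9%, 48.3% and 48.2% of Nfkb1 and 33.4%, 32.5% and 33.6% of Nfkbia, so that 0 of the 9 reached 50%. By coding transcripts alone Nfkb1 had 45.4, 45 and 33.1 TPM (41.2 ± 6.98 TPM, SD, n = 3) and moved from the fourth to the eighth place among the members, below Tnfaip3 (log2 ratio -0.58 ± 0.21). This coding level includes Nfkb1-203, whose coding sequence is annotated in part only.

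Nfkbiz, Tnfaip3 and Nfkb2 have more than 1 annotated start. Nfkbiz-204, which starts at 55822138, took 96.4%, 96.1% and 99.1% of the TPM of Nfkbiz (97.2 ± 1.67%, SD, n = 3), while of those that start at 55838899 Nfkbiz-205, a processed transcript, took 0.947 ± 0.421%, Nfkbiz-203 took 0.568 ± 0.984% and Nfkbiz-201 was listed at 0. Nfkbiz-202, from 55838854, took 1.28 ± 1.30%. For Tnfaip3, the transcript Tnfaip3-201 from 19015410 took 68.2 ± 0.879% and Tnfaip3-202 from 19011963 took 21.1 ± 2.13%, and both hold the same 2325 coding bases of A20. Tnfaip3-205, a retained-intron transcript, took 5.21 ± 0.725%. Nfkb2-204, with 2697 coding bases, took 40.7%, 56.3% and 48.0% in libraries 1, 2 and 3 (48.3 ± 7.85%), Nfkb2-206, from 46304320 and with 2634 coding bases, took 20.4 ± 5.08%, and Nfkb2-202 took 11.6 ± 3.35%. The share that moved most between libraries was that of Nfkb2-201, at 26.1%, 2.03% and 13% (13.7 ± 12%). Nfkb2-201 has neither a base nor a junction of its own, and the authors' deposited intervals for it (5.41 to 24.4 in library 1, 0.000225 to 8.8 in library 2 and 2.38 to 14.9 TPM in library 3) overlapped. These intervals belong to the authors' posterior mean estimate: over 32554 transcripts of at least 1 TPM they held the posterior mean TPM in 100.0% of cases and the TPM used here in 81.0% to 84.9%. By posterior mean Nfkb2-201 had 15.2, 3.73 and 8.19 TPM.

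The estimated transcript mix of Nfkbib and Nfkbie differed between libraries more than their level did, for Nfkbie with intervals that overlapped in part. Nfkbib-202 took 76.7%, 92.1% and 93.6% of the TPM in libraries 1, 2 and 3 (87.5 ± 9.37%, SD, n = 3) and Nfkbib-201 took 23.3%, 7.87% and 6.39% (12.5 ± 9.37%). Library 1 thus had the larger share of Nfkbib-201, and the deposited interval of its posterior mean there (20.2 TPM, 18.1 to 22.4) lay above those of library 2 (6.65 TPM, 5.44 to 7.92) and library 3 (5.32 TPM, 4.32 to 6.34). Both transcripts hold the same 1077 coding bases, and they differ outside those bases. Nfkbie-201, with 1092 coding bases, took 53.9%, 68.7% and 75.1% (65.9 ± 10.9%) and Nfkbie-203, with 1113, took 29.2%, 12.5% and 12.1% (17.9 ± 9.75%). Here too library 1 differed from the others, but the deposited intervals for Nfkbie-203 (9.12 to 19.4, 2.08 to 8.72 and 2.88 to 10.2 TPM) overlapped between libraries 1 and 3. Nfkbie-203 has 0 exonic bases and 1 junction of its own, and Nfkbie-201 has 11 such bases. Nfkbie-202, a retained-intron transcript, took 16.2 ± 3.11%.

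Rela and Relb were led by coding transcripts. Rela-201 took 88.4%, 88.3% and 93.1% of its gene's TPM in libraries 1, 2 and 3 (89.9 ± 2.77%, SD, n = 3), and the retained-intron Rela-203 took 7.72 ± 2.59%. Relb-202, with 1674 coding bases, took 51.1%, 56.6% and 59.6% (55.8 ± 4.27%) and Relb-201, with 1665, took 26.3 ± 4.73%. Relb-206, a retained-intron transcript, took 9.06 ± 0.801%. None of these Relb transcripts has a base or a junction of its own. The deposited intervals of Relb-202 and Relb-201 overlapped in library 1 (28.2 to 46.4 and 13.4 to 31.8 TPM), though not in libraries 2 and 3.

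Several of these genes are textbook targets of NF-kB itself, which makes their start regions of interest. RefSeq windows on GRCm38.p6, of 250 bases before to 50 bases after an annotated start, were matched by symbol for 7 members (Nfkbia, Nfkbib, Nfkbie, Rel, Rela, Nfkb2 and Tnfaip3), with 10 windows in all. Each was searched on both strands for the NF-kB consensus (3 G, a purine, any 2 bases, 2 pyrimidines and 2 C) and for the kappa B site of the immunoglobulin kappa enhancer, which is 1 of the sequences that the consensus covers and is the one in capitals in the last Nfkb2 stretch shown. The consensus was in 7 of the 10 windows and in 5 of the 7 members, and in 8.46% of all 32851 windows (9.55% of 27025 genes). Rela, Nfkbib and the second window of Tnfaip3 held no match. The kappa enhancer site was in 2 windows, both of Nfkb2 and overlapping each other, and in 0.155% of all windows.

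The windows of Nfkbia (chr12:55492648-55492897, minus strand), Nfkbie (chr17:45555450-45555699, plus strand) and Rel (chr11:23770971-23771219, minus strand) are shown up to the start site, because each held its match there and no annotated exon covers those bases. They run 5′ to 3′ on the gene's strand, with the match in capitals. Its first base lies at -29 in Nfkbia, -106 in Nfkbie and -92 in Rel, counted from the start.
Nfkbia: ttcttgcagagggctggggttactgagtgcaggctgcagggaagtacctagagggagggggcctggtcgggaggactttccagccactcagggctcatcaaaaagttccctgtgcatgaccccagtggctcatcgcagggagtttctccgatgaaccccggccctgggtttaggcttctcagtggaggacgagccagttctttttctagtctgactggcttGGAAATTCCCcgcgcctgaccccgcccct
Nfkbie: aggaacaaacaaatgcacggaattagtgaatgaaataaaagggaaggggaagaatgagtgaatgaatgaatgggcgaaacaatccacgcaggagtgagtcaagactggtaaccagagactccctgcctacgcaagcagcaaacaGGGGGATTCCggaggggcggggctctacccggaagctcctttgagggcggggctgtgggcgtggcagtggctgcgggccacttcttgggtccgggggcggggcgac
Rel: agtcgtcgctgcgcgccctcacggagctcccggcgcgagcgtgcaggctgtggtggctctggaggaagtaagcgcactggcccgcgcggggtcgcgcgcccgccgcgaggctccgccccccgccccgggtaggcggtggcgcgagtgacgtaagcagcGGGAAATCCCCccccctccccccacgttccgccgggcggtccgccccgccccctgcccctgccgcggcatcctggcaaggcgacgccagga
The highest member, Nfkbia, and the lowest, Rel, were thus both among those with a match.

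Tnfaip3 and Nfkb2 each held several matches, shown as stretches of 30 bases because exons overlap these windows. Those of Tnfaip3 begin at -125 (chr10:19015516-19015545) and -12 (chr10:19015403-19015432) on the minus strand. Those of Nfkb2 begin at -39 (chr19:46304688-46304717) and -11 (chr19:46304716-46304745) of 1 start, and at -236 (chr19:46305449-46305478) and 10 (chr19:46305695-46305724) of another, on the plus strand. The last is the kappa enhancer site. Matches are in capitals.
Tnfaip3 at -125: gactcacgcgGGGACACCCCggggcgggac
Tnfaip3 at -12: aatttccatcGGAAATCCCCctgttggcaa
Nfkb2 at -39: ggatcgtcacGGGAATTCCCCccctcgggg
Nfkb2 at -11: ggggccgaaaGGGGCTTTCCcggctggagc
Nfkb2 at -236: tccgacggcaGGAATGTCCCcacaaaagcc
Nfkb2 at 10: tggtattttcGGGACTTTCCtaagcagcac
A match is a run of letters in a window and was not tested for binding.

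The genes around the members were read from 7 lists with 86 genes, of which 77 were detected in every library. Of the 83 tested, 77 passed the chi-square test between libraries, with a median range of 1.39-fold, against 79.8% and 1.42-fold over all genes tested (93.6% and 1.27-fold over those that average at least 1000 reads). The counts for the single lists below stand against the same shares, and their detection against 48.1% of protein-coding genes. Of these 77, 33, 27 and 17 were highest in libraries 1, 2 and 3, and 19, 17 and 41 were lowest there. As in the whole table, library 3 was most often the lowest.

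**Figure D5:**
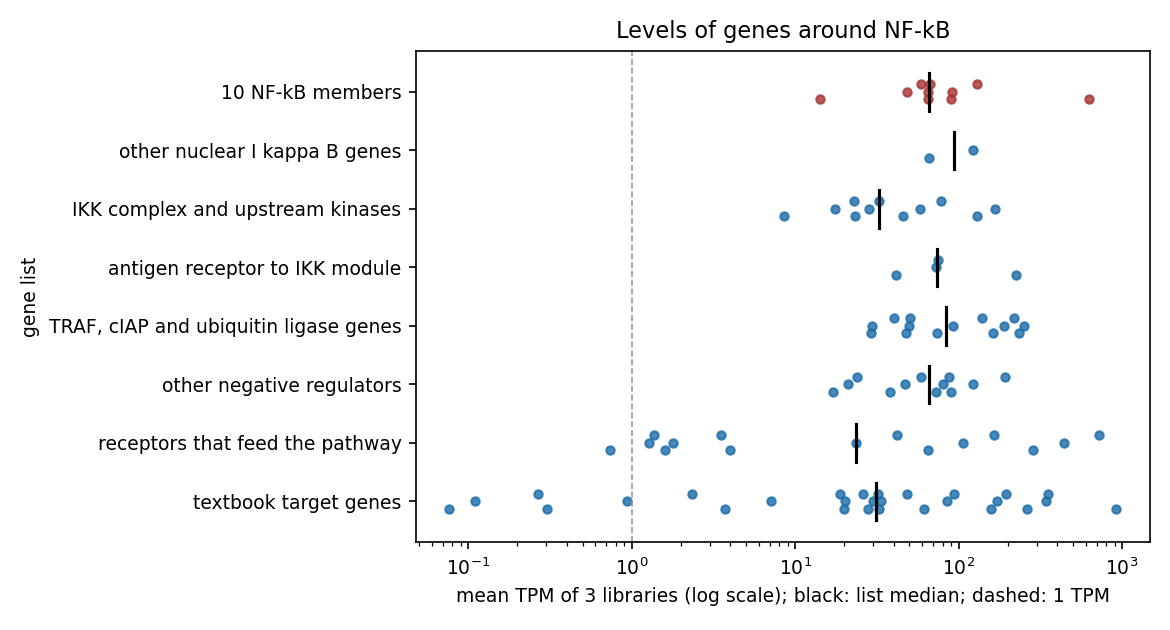
Mean TPM over 3 libraries (log axis) of each gene in the members and in 7 lists of genes around NF-kB, with the list median as a black bar and 1 TPM as a dashed line. The medians run from 23.4 TPM for the receptors to 93.9 TPM for the other nuclear I kappa B genes, and genes below 1 TPM occur only among the receptors and the target genes.

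The receptors that feed the pathway spanned high and low levels. Of 15, 12 were detected and all 15 passed the test between libraries. The highest were costimulatory receptors of the TNF receptor family: Tnfrsf4 (OX40) at 724 ± 48.5 TPM, Tnfrsf18 (GITR) at 444 ± 67.8 TPM and Cd27 at 286 ± 42.3 TPM (SD, n = 3). Tnfrsf4 thus exceeded Nfkbia in level. The lowest was Tnfrsf11a, which encodes the receptor RANK, at 0.740 ± 0.432 TPM.

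Between the antigen receptor and IKK, all 4 genes of the signalling module were detected and all 4 passed. They included Prkcq, the T cell kinase PKC-theta, at 223 ± 31.7 TPM, Bcl10 at 74.8 ± 3.96 TPM and Malt1, its partner, at 72.8 ± 7.62 TPM. In the list of adaptors and ubiquitin ligases 14 of 14 were detected and 13 passed, led by Ube2n (251 ± 13.9 TPM), Rbck1 (233 ± 19.9 TPM) and Ube2v1 (218 ± 54.3 TPM), which make ubiquitin chains. The lowest there was Traf6 at 29.1 ± 4.72 TPM, and Tradd did not pass (50.7 ± 3.17 TPM, chi-square adjusted p = 0.132).

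All 11 genes of the IKK complex and its upstream kinases were detected, and 10 passed. Ikbke, an IKK-related kinase, was highest at 167 ± 38.0 TPM, followed by Ikbkb, the kinase that phosphorylates the serine pair shown above, at 129 ± 19.1 TPM and Tbk1 at 78.5 ± 12.3 TPM. Tab3 was lowest at 8.51 ± 1.73 TPM. Map3k8, whose product is held by p105, did not pass (22.9 ± 1.19 TPM, chi-square adjusted p = 0.862).

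The other nuclear I kappa B genes, Bcl3 and Nfkbid, were both detected and both passed. Bcl3, which binds p50 and p52, had 120.9, 139.1 and 107.0 TPM in libraries 1, 2 and 3 (122 ± 16.1 TPM, SD, n = 3), and Nfkbid, which encodes I kappa B NS, a factor known for its part in Foxp3 induction, had 60.1, 72.5 and 64.0 TPM (65.5 ± 6.31 TPM). Each was highest in library 2, as was the nuclear member Nfkbiz. Of 12 other negative regulators 12 were detected and 10 passed. Tax1bp1, an A20 adaptor, was highest at 191 ± 9.49 TPM, then Pdlim2 at 122 ± 10.9 TPM and Otulin at 89.5 ± 5.83 TPM, and Otud7b was lowest at 17.0 ± 5.45 TPM. Zc3h12a (23.8 ± 1.76 TPM) and Pdlim2 did not pass (chi-square adjusted p = 0.0736 and 0.0987).

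Among 28 textbook target genes 22 were detected in every library, and 23 of 25 tested passed. Ccnd2, a cyclin, was highest at 923 ± 162 TPM, followed by the transcription factor Irf1 at 353 ± 64.7 TPM and the survival gene Bcl2 at 343 ± 45 TPM. Nos2, the inducible nitric oxide synthase of myeloid cells, was lowest at 0.0767 ± 0.00577 TPM. Il2, which regulatory T cells are known not to make in quantity, stood at 2.34 ± 0.527 TPM and did not pass (chi-square adjusted p = 0.165), and neither did Gadd45b at 33.5 ± 1.95 TPM (adjusted p = 0.213).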

How the data were processed

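RNA-seq tables of 3 libraries of 1 group were used. The transcript table and the larger gene table are on mm10 with GENCODE M21, in an RSEM layout per the file headers. Their expected counts, as deposited, are the authors' estimated reads per gene or transcript, not normalized. The authors scaled the deposited TPM for length to a fixed total, and the deposited FPKM for length and reads. The transcript percent (IsoPct) is the authors' share of the gene, recomputed here from TPM. The authors' smaller deposited table holds whole-number read counts for 22457 genes of GENCODE M4 and was an alternative only. Neither aligner nor strandedness was given in the sources used here. Entries that name no mouse gene took 0.166% to 0.229% of reads and were left out.

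The members, lists and tests were chosen with earlier results of these data known. Genes around the members named are the 3 highest and the lowest of each list by mean TPM, all of lists of 4 or fewer, and those that did not pass where 3 or fewer did not. Of each marker list the highest and lowest are named, and transcripts with 5% or more, at most 4 a gene. A few genes that this rule names are not reported here, though counts and sums include them.

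Expected counts were rounded and tested by chi-square against TMM effective library sizes (edgeR 4.0.16, R 4.3.3) with Benjamini-Hochberg adjustment. With 1 group no quasi-likelihood contrast exists. P-values measure only the spread between technical replicates. The procedure was tested on simulated data. Alternatives were DESeq2 1.42.0 size factors, other filters and pseudocounts (0.1), posterior mean estimates, FPKM, coding transcripts only, the smaller table and each library left out. Removal of a length trend, the library order in the smaller table and in TPM, and transcript types by reads were added after seeing the data. Sequences came from GENCODE M21 transcripts and RefSeq windows.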

Additional observations from a re-analysis of the deposited data

How the results depend on the processing

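Of 310 values recomputed under other settings, 12 reversed, 11 moved, 4 passed a rule that they had not passed and 2 no longer did. Reversed means that the rounded mean changed sign, a change from 0.00 included, and exceeded the spread under at least 1 of the settings compared. Nfkbia to Rela and Nfkb2 to Relb are counted both as a step and as a ratio. A further 6 values, of ratios within the spread under both settings, changed sign, among them Nfkb1 to Nfkb2 (-0.56 by coding transcripts, -0.34 in the smaller table). Most reversals came with the smaller table. Its whole-number counts were used without division by gene length, and any scaling of them was not given in the sources used here. By reads alone Nfkbia was also the first member in the larger table, and the smaller table held 12.3% to 17.0% of those reads. There 7802 of 12026 genes passed the chi-square test (64.9%) and 7 members, and the canonical to non-canonical log2 ratio was 0.26. Reversed beyond the spread were classical inhibitors to subunits (-1.16), Nfkbia to Rela (-0.27) and Nfkbib over Nfkb1 (-0.69, from 0.03). Nfkb2 over Relb was 0.73, from a mean that rounds to 0.00. Nfkbia to Tnfaip3 (-0.10 ± 0.25), Nfkbia to Nfkbiz (-0.01 ± 0.18) and Nfkb1 over Tnfaip3 (-0.05 ± 0.19) changed sign but fell within the spread. With coding transcripts only, Nfkb1 over Tnfaip3 reversed (-0.58), Nfkbib over Nfkb1 came to exceed the spread (1.15), and Nfkb1 to Rela was -1.48 in place of -0.51. With 1 library left out, 8910 (library 3) to 11736 (library 2) genes passed, members passing ran from 8 to 10, canonical to non-canonical from 0.67 to 0.93 and classical inhibitors to subunits from 0.94 to 1.23. Without library 1, Nfkb2 over Relb was 0.03. The causes were not tested. Main transcripts at 50% or more numbered 6 by posterior mean TPM and 6 by expected counts, in place of 7. No paired analysis was possible because the libraries form 1 group. Depth limited no member, since all had over 1000 reads on average, while transcript shares rest on few distinguishing bases.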
